A study of Mus musculus with 6 samples.

Results

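Immediate early and injury response genes were followed as a set of 10 in the sciatic nerve RNA-seq of Dok6 mutant mice. The set comprised Fos, Fosb, Jun, Junb, Egr1, Egr3, Atf3, Arc, Nr4a1 and Ier2, taken by gene symbol from a table of 54532 genes. The rule used no measured value, but the set was proposed with earlier results of these data known, so its counts of calls are a description. All 10 genes were in the table, once each, and all 10 were among the 17099 genes with enough counts to be tested. Nerves came from 3 control mice, labelled WT, and 3 Dok6 mutant mice, labelled Dok6 KO, all at postnatal day 3 (P3) and each sequenced as its own library. The mutant allele lacks exon 3 of Dok6 and was made by crossing floxed mice with EIIA-cre mice, in which Cre acts in the early embryo, so every tissue carries the deletion. The mice were on a C57BL/6 background, and the study did not separate them by sex. The labels name no drug or nerve injury, but the study allowed young pups to be toe clipped for identification, and whether these mice were is not given in the sources used here. DOK6 is an adapter protein that docks on neurotrophin receptors, and the comparison asked which transcripts differ in nerves without it.

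Immediate early genes are transcribed soon after a cell is stimulated, before any new protein is made, and their transcripts are short-lived. In neurons and Schwann cells they respond to growth factors, depolarization and damage, through ERK signaling to the serum response factor SRF and its ternary complex partners, and through the factor CREB bound to cyclic AMP response elements. Most encode transcription factors. FOS and JUN proteins pair to form AP-1, EGR proteins bind GC-rich sites, and NR4A1 is an orphan nuclear receptor. JUN and ATF3 are the classical markers of axon injury, since both are induced in sensory and motor neurons after nerve transection, and JUN also drives the repair state of Schwann cells.

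The stretches just before the transcription start of these genes are shown because 5 of the 6 members with a RefSeq promoter entry (GRCm38.p6) held the core of the cyclic AMP response element, TGACG, or its reverse complement CGTCA. Each sequence covers the 130 bases before the start, written 5′ to 3′ on the strand of the gene, with TGACG and CGTCA in capitals. The stretches lie at chr12:85473760-85473889 for Fos (plus strand), chr7:19310046-19310175 for Fosb (minus strand), chr8:84978749-84978878 for Junb (minus strand), chr15:101266716-101266845 for Nr4a1 (plus strand), chr1:191183334-191183463 for Atf3 (minus strand) and chr4:95052223-95052352 for Jun (minus strand).
Fos: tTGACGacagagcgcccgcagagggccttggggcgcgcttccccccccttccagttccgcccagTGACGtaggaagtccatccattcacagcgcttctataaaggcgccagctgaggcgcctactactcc
Fosb: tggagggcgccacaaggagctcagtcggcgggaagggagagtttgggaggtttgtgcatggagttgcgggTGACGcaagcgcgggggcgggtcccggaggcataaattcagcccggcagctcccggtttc
Junb: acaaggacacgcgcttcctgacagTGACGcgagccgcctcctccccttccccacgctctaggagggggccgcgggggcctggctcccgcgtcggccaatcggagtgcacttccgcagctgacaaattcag
Nr4a1: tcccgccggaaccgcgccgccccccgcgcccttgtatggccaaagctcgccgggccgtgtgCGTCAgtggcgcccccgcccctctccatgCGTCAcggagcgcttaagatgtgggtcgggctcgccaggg
Atf3: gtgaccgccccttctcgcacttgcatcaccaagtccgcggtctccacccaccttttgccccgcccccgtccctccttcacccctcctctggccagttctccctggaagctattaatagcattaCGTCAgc
Jun: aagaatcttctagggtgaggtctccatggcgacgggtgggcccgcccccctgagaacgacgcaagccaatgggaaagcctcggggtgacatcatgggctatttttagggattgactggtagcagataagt
Fos held matches that began 129 and 66 bases before the start, Nr4a1 at 69 and 40, Junb at 106, Fosb at 60 and Atf3 at 7, whereas Jun had none in this window. The starts are those of RefSeq. GENCODE M21 starts an Atf3 transcript 7 bases further upstream, so the Atf3 match lies in annotated 5′ UTR, and the matches of the other 4 genes lie outside annotated UTRs. The Atf3 and Nr4a1 stretches also lie inside the gene spans given with their values, since a longer transcript of each starts farther upstream. Of all 32851 promoters in the RefSeq table, 12.2% held at least 1 match in the same 130 bases on either strand. A match of 5 letters describes the sequence and is not evidence of a bound factor. Variants of the element that differ from these 5 letters were not searched for, so a stretch without a match may still hold one. Arc, Egr1, Egr3 and Ier2 were not analysed here.

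The libraries held 17699904 to 18678170 counts, and 3 counts, the smallest level taken as detectable, corresponded to 0.156 to 0.172 CPM, the usual depth-normalised count, here with library totals scaled by TMM (trimmed mean of M-values). This floor covers counting error only. Dok6 itself measured 17.8, 11.9 and 17.5 CPM in controls against 7.26, 5.78 and 7.15 in mutants (log2 fold change -1.23, adjusted p = 0.0118), so the labels and the targeted gene went the same way, although the counts include reads from exons outside the deletion. The study calls the controls littermates, but the labels do not say which mice shared a litter, and a p-value here measures the spread between 3 mice of each genotype. The nerve samples held transcripts of several tissues. In the mutant mice, 11 of 12 tested skeletal muscle markers, 10 of 16 DRG neuron markers, 8 of 12 fibroblast markers, 7 of 14 Schwann cell markers, 4 of 12 endothelial markers and 3 of 11 pericyte and smooth muscle markers were higher at an adjusted p under 0.05. Of all genes tested, 8.62% were higher and 6.01% lower at this threshold. The summed level of the muscle markers was 22.1 to 35.3 CPM in the control mice and 758, 418 and 145 in mutant mice 1, 2 and 3, and among them Tnnc2 had no count in any library and Myh4, Myod1 and Myog had none in at least 1. The summed Schwann cell markers were at 416, 266 and 1930 CPM in control and 1600, 7100 and 463 in mutant mice. Summed fibroblast markers were at 377 to 1320 CPM in control and 2240 to 3360 in mutant mice, and DRG neuron markers at 1130 to 1350 and 1470 to 2140. Mrgprd, which marks nonpeptidergic nociceptors, had 0, 2 and 1 counts in the control mice and 94, 319 and 159 in the mutant mice. It passed the filter on low counts through its level in the mutant libraries, so its place among the DRG neuron markers is no support for their count. Muscle markers, scarce in the control mice, may have passed in the same way. Endothelial markers summed to 230 to 420 and 397 to 587 CPM in control and mutant mice, pericyte and smooth muscle markers to 285 to 410 and 484 to 767, and macrophage and microglia markers, of which 1 of 14 was higher, to 138 to 193 and 201 to 231. Of 6 tested erythroid markers 4 were lower, with sums of 431 to 750 against 75.6 to 291 CPM and no count of Epb42 in 2 libraries. Central nervous system markers, which a sciatic nerve should not contain, summed to 3400 to 4660 CPM in control and 2850 to 5240 in mutant mice, none of 14 higher and 1 lower. The macrophage and microglia share higher and the central nervous system share lower were each 7.14%, near the shares of all genes. The part of these cell types in the results that follow was not tested, and in bulk tissue more cells of a type cannot be told apart from more RNA per cell.

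In Dok6 mutant nerves, 6 of the 10 genes were higher than in control nerves and none was lower in edgeR's quasi-likelihood test at an adjusted p under 0.05. These were Fosb, Egr3, Egr1, Junb, Fos and Ier2, with increases from 1.74-fold for Ier2 to 4.62-fold for Fosb. Jun, Atf3, Nr4a1 and Arc did not pass. Across all 17099 genes tested, 8.62% were higher and 6.01% lower by the same rule. All 10 log2 fold changes were above 0, against 51.4% of all genes tested, and their median was 0.89, against 0.01. In 7 of the 10, every mutant mouse was above every control mouse, against 19.6% of all genes. No member lay below the controls in every mutant mouse, against 18.7% of all genes. With an added threshold of 1 on the log2 fold change, 4 members were called higher, against 3.58% of all genes, and with the threshold of 2 that the study used 1 was, Fosb, against 1.08%. Fosb had under 10 counts in 2 control libraries and passed the filter on low counts through its level in the mutant libraries, so its place among these counts of calls is no support for them. Of the 9 other members, 5 were higher.

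**Figure D1:**
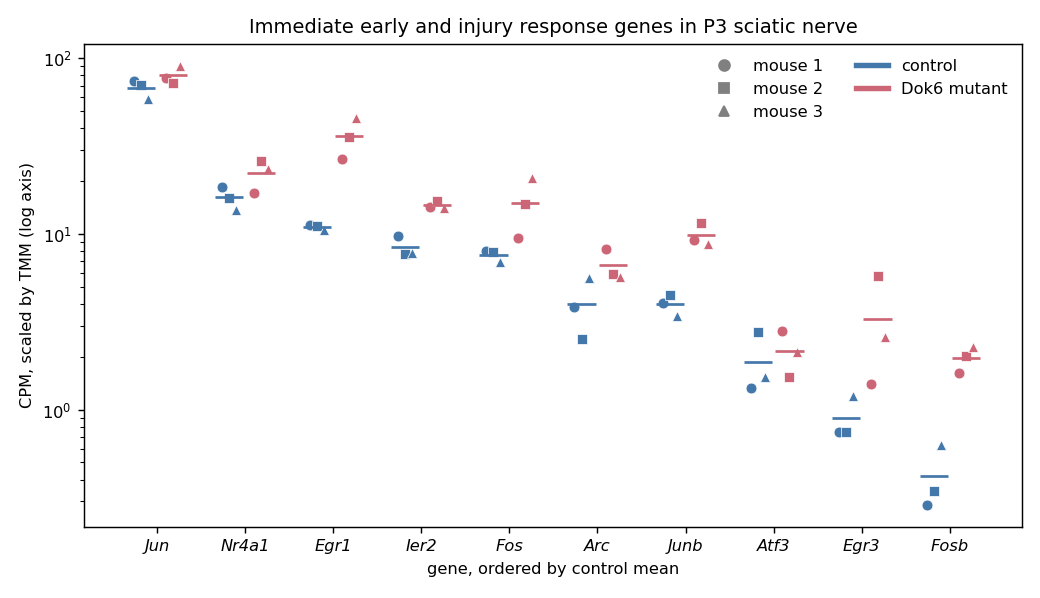
CPM of each gene (log axis) in the 3 control mice (blue) and the 3 Dok6 mutant mice (red), with marker shape for the mouse number and a line for the mean. The mutant points lie above all control points for Egr1, Ier2, Fos, Arc, Junb, Egr3 and Fosb, and overlap them for Jun, Nr4a1 and Atf3.

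The EGR genes encode zinc finger transcription factors. Egr1, which follows ERK activity closely in many cells, lies on chromosome 18 of GRCm38 from 34859823 to 34864984. It was at 11.2, 11.1 and 10.6 CPM in control mice 1, 2 and 3 and at 26.6, 35.8 and 45.6 in mutant mice 1, 2 and 3. The control mice were nearly equal, the mutant mice differed 1.72-fold among themselves, and the lowest mutant was far above the highest control. The mutant mean of 36.0 ± 9.51 CPM (SD, n = 3 mice) was 3.27 times that of the controls. This is an increase of 1.71 on the log2 scale, with a standard error (SE) of 0.19 and an edgeR adjusted p of 0.00588.

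Egr3 (chromosome 14, 70077203 to 70082614), needed for muscle spindles to form and induced by neuregulin, was scarce. It had 13, 13 and 21 counts in the control mice and 27, 106 and 49 in the mutant mice, or 0.746, 0.745 and 1.2 CPM against 1.4, 5.78 and 2.60. The genotypes did not overlap, but mutant mouse 1 was only just above control mouse 3, and the mutants differed 4.13-fold among themselves. Its log2 fold change was 1.85 (standard error 0.53) with an adjusted p of 0.0493 from the same edgeR test. Mutant mouse 2, the highest for Egr3, was also the highest for the summed Schwann cell markers. Mutant mice 1 and 3, with sums of 1600 and 463 CPM, were below control mouse 3 at 1930 for these markers and above it for Egr3. The part of Schwann cells was not tested. The Egr3 call was lost in limma voom, with mice of the same number as a block (replicate block) and in 5 of the 6 fits that left out 1 mouse. Over all alternatives the log2 fold change was 1.15 at the lowest, and adjusted p-values ran from 0.00725 to 0.168.

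Among the FOS genes, Fos (chromosome 12, 85473890 to 85477273), the founding immediate early gene, was at 8.03, 7.85 and 6.92 CPM in control and 9.54, 14.8 and 20.9 in mutant mice. Every mutant was above every control, with mutant mouse 1 close to the control range and mutant mouse 3 at 2.75 times the control mean. The log2 fold change was 0.99 (SE 0.26, edgeR adjusted p = 0.0403). As for Egr3, the call was lost in limma voom, with the replicate block and without any 1 mouse except mutant mouse 1. Adjusted p-values over the alternatives ran from 0.00334 to 0.133.

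Fosb (chromosome 7, 19302696 to 19310051) encodes a FOS protein whose truncated splice form accumulates with repeated stimulation. The counts are per gene and do not separate its isoforms. It had only 5, 6 and 11 counts in the control mice and 31, 37 and 43 in the mutant mice, which corresponds to 0.287, 0.344 and 0.629 CPM against 1.61, 2.02 and 2.28. Its increase was the largest of the 10, with a log2 fold change of 2.21 (95% interval 1.33 to 3.09, edgeR adjusted p = 0.0142), and the groups were well apart. Without control mouse 2 the adjusted p was 0.0817, within a range of 0.00121 to 0.0817 over the alternatives.

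Junb (chromosome 8, 84974484 to 84978718) encodes a JUN protein that activates AP-1 sites less strongly than JUN. It was at 4.07, 4.47 and 3.43 CPM in control and 9.28, 11.6 and 8.80 in mutant mice. All mutant mice were at least 2.20 times the control mean and differed only 1.32-fold among themselves. The log2 fold change was 1.31 (SE 0.19, edgeR adjusted p = 0.00923). Leaving out control mouse 2 raised the adjusted p to 0.0519, the highest of the alternatives, of which the lowest was 3.62e-06. Its exons overlap those of Prdx2 on the other strand, and whether the counting used strand is not given in the sources used here. Prdx2, a peroxiredoxin, moved little, at 316 ± 20.5 CPM in control and 279 ± 19.1 in mutant mice (SD, n = 3 mice, adjusted p = 0.189 from edgeR).

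Jun (chromosome 4, 95049034 to 95052222) was the most abundant member and differed little. Its values were 74.3, 70.9 and 58.4 CPM in control and 77.5, 71.9 and 90.5 in mutant mice, and mutant mouse 2 fell inside the control range. The log2 fold change was 0.24 (95% interval -0.04 to 0.51, edgeR adjusted p = 0.208), so an increase above 0.51 on the log2 scale lay outside the interval. Reads from Junos, an antisense transcript that overlaps its exons, could not be told apart from those of Jun if strand was not used. Junos had 11 to 26 counts per library, against 1022 to 1707 for Jun.

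Atf3 (chromosome 1, 191170296 to 191218039), the factor most closely tied to axon injury in sensory neurons, was low in all mice. It was at 1.32, 2.75 and 1.54 CPM in control and 2.80, 1.53 and 2.12 in mutant mice, so the groups overlapped and only mutant mouse 1 was above the highest control. Its log2 fold change was 0.20 (95% interval -0.64 to 1.04, edgeR adjusted p = 0.735). With 23 to 54 counts per library, an increase as large as that of Junb lay outside this interval and one as large as that of Fos lay inside it. Without mutant mouse 1 the log2 fold change was -0.04, and without control mouse 2 it was 0.58.

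Ier2 (chromosome 8, 84661331 to 84662852), a small nuclear protein of less known function induced by serum, was at 9.70, 7.74 and 7.83 CPM in control and 14.3, 15.5 and 14.1 in mutant mice. This was the most uniform of the increases, with the mutant mice within 1.10-fold of each other. The log2 fold change was 0.80 (SE 0.15, edgeR adjusted p = 0.016). The call was lost without control mouse 2, without mutant mouse 2 and with the replicate block. Adjusted p-values over the alternatives ran from 0.000464 to 0.0844.

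Nr4a1 and Arc came between. Nr4a1 (chromosome 15, 101254269 to 101274795) was at 18.6, 16.1 and 13.7 CPM in control and 17.0, 26.1 and 23.4 in mutant mice, with mutant mouse 1 inside the control range. Its log2 fold change was 0.46 (95% interval 0.04 to 0.88) with an adjusted p of 0.121 from the same edgeR test. Arc (chromosome 15, 74669083 to 74672570) encodes a cytoskeleton-associated protein that forms capsid-like particles and is induced by synaptic activity in central neurons. It was at 3.84, 2.52 and 5.60 CPM in control and 8.25, 5.95 and 5.72 in mutant mice, which did not overlap, although mutant mouse 3 and control mouse 3 almost touched. Its log2 fold change was 0.73 (95% interval 0.06 to 1.41), and the adjusted p was 0.123 from the same test. The intervals given here are not adjusted for the number of genes. Neither Arc nor Nr4a1 passed under any alternative, with lowest adjusted p-values of 0.0587 and 0.0684.

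**Figure D2:**
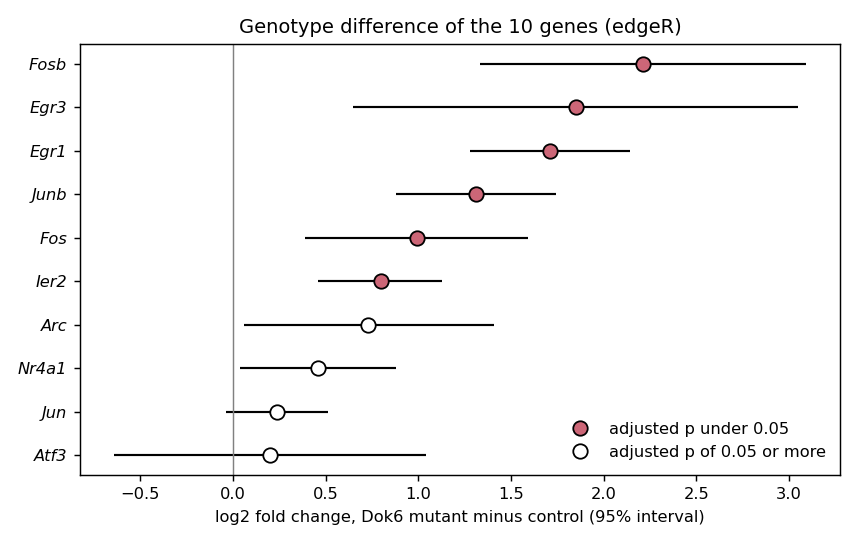
Log2 fold change of each gene, Dok6 mutant minus control, from edgeR, with the unadjusted 95% interval as a line. The 6 filled points passed an adjusted p under 0.05, with Fosb at 2.21 and Ier2 at 0.80 as the ends of their range, and the 4 open points, from Atf3 at 0.20 to Arc at 0.73, did not.

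The 3 mutant mice did not share one order over the 10 genes. Fos, Fosb and Egr1 were each lowest in mutant mouse 1 and highest in mutant mouse 3. In mutant mouse 1 the summed muscle markers were highest. Egr3, Junb, Nr4a1 and Ier2 were highest in mutant mouse 2, and Arc and Atf3 in mutant mouse 1. Mutant mice 1, 2 and 3 were above the highest control mouse in 9, 8 and 9 of the 10 genes, against 36.1%, 36.1% and 33.8% of all genes tested, and the median ratio to the control mean was 1.63, 1.90 and 1.94.

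**Figure D3:**
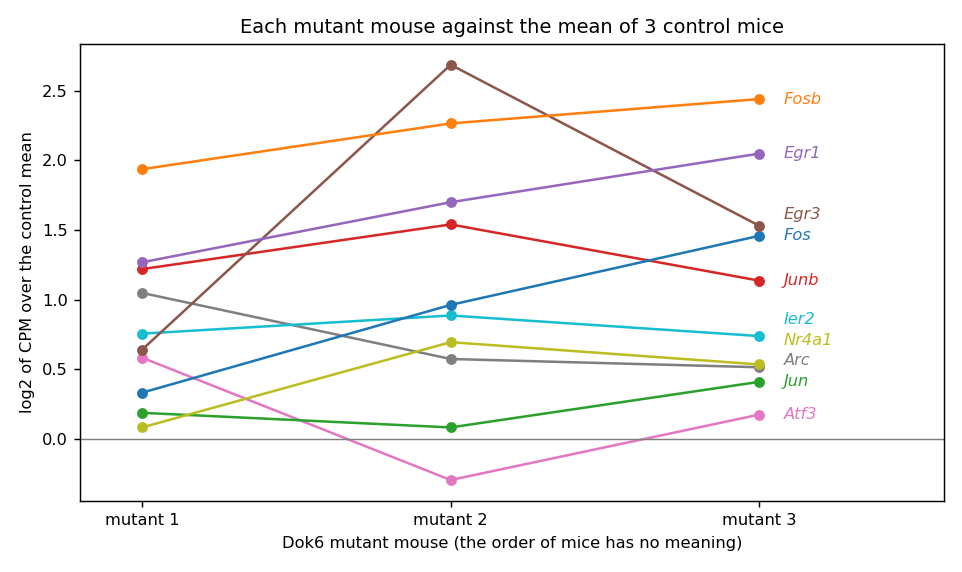
Log2 of the CPM of each gene in each Dok6 mutant mouse over the mean of the 3 control mice, with a line joining the points of a gene for tracing only. Egr3 stands out in mutant mouse 2, at 6.44 times the control mean, and Atf3 in mutant mouse 2, at 0.816 times, is the only point below 0.

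Levels between genes were compared per length, as reads per kilobase of the authors' gene length after the same scaling (RPKM). In control nerves the order was Jun at 21.3 ± 2.62, Ier2 at 5.53 ± 0.725, Nr4a1 at 4.59 ± 0.702, Fos at 3.23 ± 0.254 and Egr1 at 2.45 ± 0.0718 RPKM (SD, n = 3 mice). Below these came Junb at 1.73 ± 0.228, Arc at 1.31 ± 0.506, Atf3 at 0.869 ± 0.358, Egr3 at 0.204 ± 0.0597 and Fosb at 0.0673 ± 0.0294. The ranges over the mice overlapped between the neighbours Ier2 and Nr4a1, Junb and Arc, and Arc and Atf3, and were apart for the other neighbours. In mutant nerves Egr1, at 8.02 ± 2.12 RPKM, was above Fos at 6.42 ± 2.42 and Nr4a1 at 6.32 ± 1.33, but the ranges of these 3 genes overlapped. Jun remained first at 25.1 ± 2.98 and Fosb last at 0.315 ± 0.0542 RPKM.

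For each gene, the 3 other genes with the most similar profile over the 6 libraries were found by the root mean square difference of log2(CPM + 0.5), each gene centred on its own mean. The nearest were Col8a1 for Fos (difference 0.12), Scn2b for Fosb (0.13), Vwa5a among the first 3 for Junb (0.10), Mst1r for Egr1 (0.12) and Tnni1 for Egr3 (0.15), followed by Lgi4 (0.18). Aasdh was nearest to Jun (0.03), Plekhh2 to Arc (0.09), Slc4a11 to Nr4a1 (0.04), Gm8129 to Atf3 (0.11) and Ifi35 to Ier2 (0.03). No member was among the 3 nearest genes of another member. Genes with small changes, such as Jun, have small differences to many genes, so the values are not comparable between members.

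Of 44 other immediate early genes, 43 were tested, 5 were higher and 1 was lower at an adjusted p under 0.05, or 11.6% and 2.33%, against 8.62% and 6.01% of all genes. The median log2 fold change was 0.19, so the list as a whole lay much nearer to the median of all genes than the 10 members did. The largest increase was in Egr2, the EGR factor that Schwann cells need to myelinate, which was at 1.2, 0.975 and 0.4 CPM in control and 2.02, 18.9 and 2.70 in mutant mice (log2 fold change 3.18, edgeR adjusted p = 0.0483). Mutant mouse 2 set its size, since without that mouse the log2 fold change was 1.45 (adjusted p = 0.102). Egr2 had 21, 17 and 7 counts in the control mice and passed the filter on low counts only with its level in the mutant libraries. Its place among the calls of this list is therefore no support for them, and without it the share higher would be nearer to that of all genes. Npas4, a factor induced by calcium entry in neurons, was at 2.16 ± 0.285 CPM in control and 4.34 ± 0.264 in mutant mice (SD, n = 3 mice), with a log2 fold change of 1.01 (edgeR adjusted p = 0.0232). Ier3 and Ier5l, relatives of Ier2 by name and induction, rose by 0.84 and 0.78 on the log2 scale (adjusted p = 0.0254 and 0.0213). Ier5, a further relative in the list, did not pass (log2 fold change 0.14, edgeR adjusted p = 0.448). Id1, an inhibitor of basic helix-loop-helix factors, also rose, by 0.60 (adjusted p = 0.0249). Btg1, an antiproliferative gene, was the one that fell, from 79.1 ± 2.62 to 54.9 ± 6.34 CPM (log2 fold change -0.53, adjusted p = 0.0173). Many usual companions of Fos did not pass, among them Dusp1 (log2 fold change 0.44), Zfp36 (0.88), Btg2 (0.58), Cyr61 (0.92), Klf4 (0.09), Nr4a2 (-0.11) and Nr4a3 (-0.30). These 7 were picked after their values were seen. Without control mouse 2 no gene of this list or of the 5 lists that follow was called higher or lower. Of the 13 alternatives without a fold threshold, Ier5l was called in 9 and Npas4, Ier3 and Id1 in 8, and Egr2 was called in 6 of the 12 that tested it.

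Few partners of FOS, JUN and ATF3 in the basic leucine zipper (bZIP) family were called. Of 29 listed, 27 were tested, 2 were higher and 1 was lower, with a median log2 fold change of 0.11. The shares of 7.41% higher and 3.70% lower were below the 8.62% and 6.01% of all genes, and the called genes are named as single genes only. Nfe2l2, the oxidative stress factor NRF2, rose by 0.77 (edgeR adjusted p = 0.0455), and its small partner Mafg rose by 0.50 (adjusted p = 0.0132). Atf2, which pairs with JUN at cyclic AMP response elements, fell from 108 ± 5.21 to 88.8 ± 1.10 CPM (SD, n = 3 mice, log2 fold change -0.28, adjusted p = 0.0382). The Atf2 call was lost without any 1 of the 6 mice (adjusted p = 0.0509 to 0.154 from edgeR), with no filter on low counts and with the replicate block. That of Nfe2l2 was lost with the replicate block and without any 1 mouse except mutant mouse 3, with an adjusted p of up to 0.138. Mafg held in 11 of 13 alternatives.

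Among 30 genes of the machinery upstream, namely SRF and its partners, CREB and its coactivators, MEF2 factors and MAP kinases, 6 were higher and 2 lower, or 20.0% and 6.67%, against 8.62% and 6.01% of all genes, with a median of 0.15. Srf rose from 23.8 ± 2.83 to 37.7 ± 6.61 CPM (SD, n = 3 mice), a log2 fold change of 0.66 (edgeR adjusted p = 0.0253). The ternary complex factor Elk3 rose by 0.76 (adjusted p = 0.0484) and the actin-regulated SRF coactivator Mkl1 by 0.53 (adjusted p = 0.0297). Mapk3, which encodes ERK1, rose by 0.50 (adjusted p = 0.025). Crebbp, a CREB coactivator, was lower, at 71.6 ± 2.85 CPM against 99.5 ± 14.0 (log2 fold change -0.47, adjusted p = 0.0262). Srf was called in 10 of 13 alternatives, Elk3 and Mapk3 in 9, and Mkl1 and Crebbp in 8, with losses where single mice were left out. These are transcript levels and carry no information on protein level or phosphorylation. By Western blot, the study found less ERK protein, total and phosphorylated, in mutant sciatic nerves of this age. The Mapk3 increase is therefore no evidence of more ERK protein or activity.

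Genes induced in neurons by axon injury were also read. Of 30 listed, 28 were tested, 2 were higher and 2 lower, and the median log2 fold change was -0.06. Each share was 7.14%, near the 8.62% and 6.01% of all genes. Anxa2, an annexin expressed in many cell types, had the largest increase, from 47.2 ± 11.3 to 145 ± 49.5 CPM (SD, n = 3 mice, log2 fold change 1.62, edgeR adjusted p = 0.0123). Itga7, an integrin subunit of regrowing axons and of muscle, rose by 0.94 (adjusted p = 0.0256). Flrt3 and Ecel1, both induced in injured DRG neurons, fell, with log2 fold changes of -0.69 (adjusted p = 0.010) and -0.43 (adjusted p = 0.0278). Anxa2 and Flrt3 were called in 12 of 13 alternatives, Itga7 in 9 and Ecel1 in 8. The neuropeptide gene Gal and the factor Sox11, further injury genes named here after their values were seen, had log2 fold changes of 0.29 and -0.23 and did not pass.

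Of 26 genes of the Schwann cell repair state, among them targets of JUN, 22 were tested and 3 were higher and none lower, or 13.6% and 0%, against 8.62% and 6.01% of all genes, with a median log2 fold change of 0.37. Ngfr, the p75 neurotrophin receptor, rose by 1.35 (edgeR adjusted p = 0.0326), with mutant mouse 1 inside the control range. Tgfb1 rose by 0.76 (adjusted p = 0.0252) and the chromatin protein gene Hmga2 by 0.68 (adjusted p = 0.0297). Each of these 3 calls held in 8 of 13 alternatives and was lost without any 1 of 4 mice. Shh and Gdnf, which repair Schwann cells switch on, had log2 fold changes of 0.67 and -0.86 and did not pass, nor did Sox2 at 0.08, all 3 named after their values were seen.

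A list of 18 heat shock genes was read as a second stress program. All were tested, 5 were higher and 1 was lower, or 27.8% and 5.56%, against 8.62% and 6.01% of all genes, with a median of 0.03. The increases were in Cryab (log2 fold change 2.56, edgeR adjusted p = 0.0382), Hspb8 (1.45, adjusted p = 0.00716), Bag3 (1.09, adjusted p = 0.0153), Chordc1 (0.59, adjusted p = 0.0171) and Hsf1 (0.49, adjusted p = 0.0247), and Dnajb1 was lower (-0.44, adjusted p = 0.0225). Hspb8 was called in 12 of 13 alternatives, Bag3 in 11, Chordc1 in 9, and Cryab and Hsf1 in 8. Cryab, Hspb8 and Bag3 are abundant in muscle. Among the mutant mice these genes were highest in mutant mouse 2, and the summed muscle markers in mutant mouse 1. The part of muscle in these increases was not tested. Cryab was at 59.2 CPM in mutant mouse 2 and at 13.3 and 9.01 in the other mutant mice, and without mutant mouse 2 its log2 fold change was 1.28. Hspa1a and Hspa1b, the inducible HSP70 genes, which nearly share a sequence and so may share reads, had log2 fold changes of 0.07 and 0.02.

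**Figure D4:**
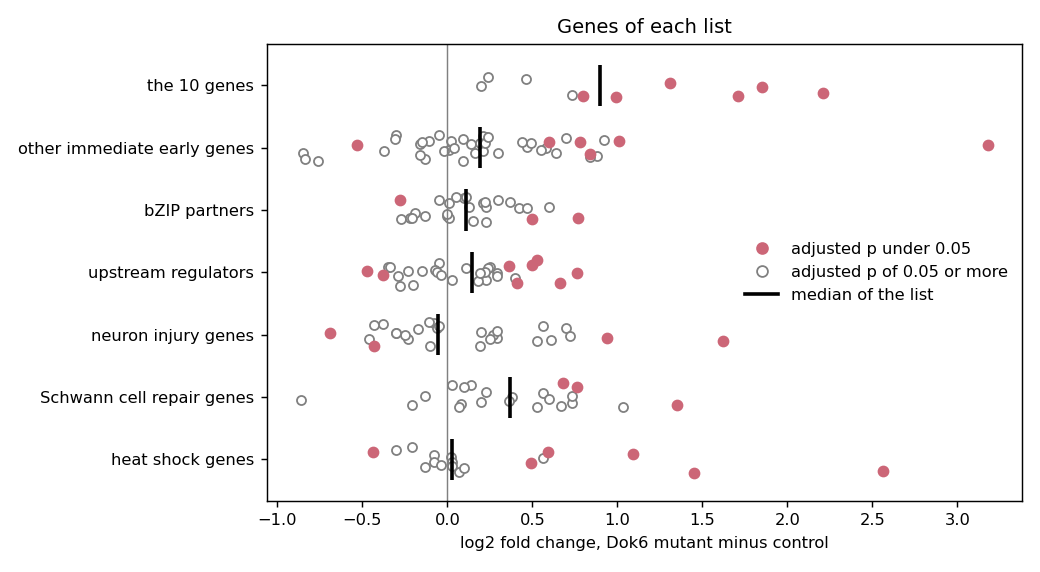
Log2 fold change of every tested gene of the 10 members and of 6 further lists, with filled points for an adjusted p under 0.05 in edgeR and a bar for the median of the list. The median is 0.89 for the 10 genes and between -0.06 and 0.37 for the other lists, and Egr2 at 3.18 is the rightmost point.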

How the data were processed

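RNA-seq counts of sciatic nerves from 3 control and 3 Dok6 mutant mice at P3 were analysed. The authors prepared libraries with a NEBNext Ultra kit, whose directional (stranded) version the study's methods name and the labels do not, and deposited counts per gene, not normalized. The submitters' processing notes name mm10. The aligner, the counter and whether the counting used strand are not given in the sources used here. The columns were matched to the samples by genotype and mouse number.

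Genes kept by filterByExpr were scaled by TMM and tested with edgeR 4.0.16 (glmQLFit, glmQLFTest) in R 4.3.3, with genotype as the sole term. The study used DESeq2 and states no block. Adjusted p-values are Benjamini-Hochberg values across the 17099 genes tested, and those under 0.05 were called. Standard errors were derived from the F statistic. CPM are scaled by TMM factors, and RPKM use the gene length the authors deposited. The members and lists were chosen with earlier results of these data known. Named genes are the 10 members, up to 5 called genes per list with the largest changes, Dok6 and the genes with the nearest profiles. Others were named after their values were seen: Btg1 and Dnajb1 (the lower genes of their lists), uncalled genes of the lists, markers with no count in a library, Sprr1a and Il6. Junos and Prdx2 are named because their exons overlap a member. Where a symbol had more than 1 row, the row with most counts was used. Alternatives were DESeq2 1.42.0, limma 3.58.1 voom, other scalings and filters, fold thresholds, a replicate block and leaving out each mouse. Procedures were tested on simulated counts. Positions and overlaps come from GENCODE M21 (GRCm38), and BLAST 2.17.0 was used to look for near-identical transcripts (95% identity over at least 200 bases). Permuting the labels of 3 and 3 mice exactly cannot reach a two-sided p under 0.10, so no such test was run.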

Additional observations from a re-analysis of the deposited data

How the results depend on the processing

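No gene of the 10 was called lower under any alternative. The 6 calls of higher members all held with DESeq2, RLE or upper-quartile scaling, no filter, or mutant mouse 1 left out, and Egr1 held in each of the 13 alternatives without a fold threshold. It did not pass the threshold of 2. At least 10 counts in every library removed Fosb from the test. limma voom called 4 of the 6, against 7.86% of all genes higher. With the replicate block 3 members were called higher, Egr1, Fosb and Junb, while the share of all genes called higher went from 8.62% to 2.53% and lower from 6.01% to 0.76%, but the numbers share only a label: deviations of same-numbered mice correlated at -0.289 to -0.00854. Leaving out 1 mouse gave 1 to 6 members, with 1, Egr1, without control mouse 2 and 3 without mutant mouse 2. The share of all genes called higher was 0.318% without control mouse 2, 3.16% without mutant mouse 2, and 3.99% to 9.59% without any other mouse. The log2 fold change of Atf3 turned to -0.04 without mutant mouse 1 and ranged up to 0.58, without control mouse 2. The cause was not tested.

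A threshold of 1 on the log2 fold change left 2 other immediate early genes, 1 neuron injury gene, 1 Schwann cell repair gene and 3 heat shock genes higher, 0 bZIP partners and 0 upstream regulators, and 0 lower in any list. At a threshold of 2 there was 1 member, 1 other immediate early gene and 1 heat shock gene. With the replicate block, 2 upstream regulators, 1 neuron injury gene and 1 heat shock gene were higher and 1 neuron injury gene was lower, with 0 for the bZIP partners, the Schwann cell repair genes and the higher other immediate early genes. DESeq2 called 5 neuron injury genes and 2 heat shock genes lower, and 8.88% of all genes. Without a filter, where 6.08% of all genes were higher and 3.66% lower, 4 neuron injury genes were higher and 4 lower, 5 Schwann cell repair genes were higher and 0 bZIP partners lower. Leaving out each mouse in turn gave 0 to 5 higher and 0 to 3 lower other immediate early genes, 0 to 3 higher and 0 lower bZIP partners, 0 to 5 and 0 to 2 upstream regulators, 0 to 3 and 0 to 5 neuron injury genes, 0 to 4 and 0 to 1 Schwann cell repair genes, and 0 to 5 and 0 to 2 heat shock genes. Each of these 0 counts of higher genes was without control mouse 2, and that for Schwann cell repair genes also without mutant mouse 2. In these fits the share of all genes called lower ran from 0.0682%, without control mouse 2, to 7.08%, without mutant mouse 3. Low counts limit Fosb, Egr3 and Atf3, with at most 106 counts in a library.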

Other observations

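Sprr1a, a small proline-rich protein gene that is among the genes most strongly induced in injured sensory neurons, did not pass the filter on low counts and was picked after its values were seen. It had 2, 3 and 9 counts in the control mice and 192, 6 and 4 in mutant mice 1, 2 and 3. The level of 9.96 CPM in mutant mouse 1 stood alone, and the other mutant mice, at 0.327 and 0.212 CPM, were within the control range of 0.115 to 0.515. Atf3 was also highest in that mouse, at 2.80 CPM, which is close to the 2.75 of control mouse 2. Il6, an injury-induced cytokine gene, had at most 2 counts in any library.

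The levels per length were summed within each gene family after the values were seen. The 4 Egr genes summed to 2.96 ± 0.175 RPKM in control and 11.2 ± 4.02 in mutant mice (SD, n = 3 mice), and the 4 Fos genes to 8.01 ± 0.666 and 12.4 ± 3.24. The 3 Jun genes summed to 72.4 ± 4.28 and 79.0 ± 6.63 RPKM, and the 3 Nr4a genes to 12.2 ± 2.60 and 12.9 ± 1.72, so that the ranges of the genotypes overlapped in these families. Fos made up 40.0 to 40.6% of the summed Fos family level in the control mice and 41.4 to 55.5% in the mutant mice. Egr1 made up 81.3 to 85.9% of the Egr family in control and 53.4 to 86.3% in mutant mice, where Egr2 and Egr3 were high in mutant mouse 2.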
